A study of Saccharomyces cerevisiae with 5 samples.

Results

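The deletion strains examined here each lack 1 copy of a gene for a subunit of nuclear RNA polymerase I, II or III in budding yeast, Saccharomyces cerevisiae. They were chosen by gene symbol in the array's annotation, from a list of subunit names. No measured value entered that rule, but earlier results of these data were known when the genes were chosen. All 31 listed genes were on the array, out of 5325 named genes. RPB4 was represented by 3 tag sets and each other gene by 1, so the 31 genes gave 33 strains of 5444, read through 114 of 18794 named spots. By enzyme, 7 genes encode subunits of polymerase I only, 7 of polymerase II only and 10 of polymerase III only. A further 2 encode subunits shared by polymerases I and III, and 5 encode subunits common to all 3 enzymes.

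The study measured a mixture of known make-up rather than a growth phenotype. Heterozygous diploid deletion strains, which keep 1 intact copy of the deleted gene, were grown on rich agar, pooled and frozen. Pools A and B were prepared so that 94 strains differed in amount between them while every other strain was meant to be equal, and the labels do not name the 94. In Pool B those 94 were undiluted, 8-fold or 64-fold diluted, and in Pool A they were diluted further by 0.33 to 5 log2 units or left out.

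Genomic DNA was the template for PCR of the strain barcodes, with about 50 ng per reaction and 50 cycles, and Cy3 or Cy5 was carried on a primer. On 3 arrays both dyes labelled Pool A (Pool A self-self, replicates 1 to 3), and on 1 array both dyes labelled Pool B (Pool B self-self). On 1 further array, called the mixed array below, Cy3 labelled Pool A and Cy5 labelled Pool B. The mixed array shares the title prefix of the Pool A arrays. The Pool B array has another prefix, so pool and prefix cannot be told apart there. All values are log2 ratios of the dyes, centred on the median of each array's named spots. Positive values were taken to mean more Cy5, hence more Pool B on the mixed array. That direction is likely rather than stated. The design places the differential strains lower in Pool A, and the largest difference of any strain on the mixed array was positive, at 6.55 against a lowest of -3.01. By count of called strains, more were lower (318) than higher (84), so the basis is the largest value and not the count. On a self-self array both channels hold the same pool, so a value away from 0 there is not a difference in strain amount.

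The nuclear RNA polymerases divide the genome's transcription. Polymerase I makes the large ribosomal RNA precursor, polymerase II makes messenger RNA, and polymerase III makes transfer RNAs and the smallest ribosomal RNA. Each is built on a pair of large catalytic subunits, an assembly platform of alpha-like subunits, a stalk and a set of small subunits, some of which all the enzymes share, and polymerases I and III carry extra subunits that resemble the initiation factors TFIIF and TFIIE. Most of these genes are essential, so their deletions can be kept in a heterozygous collection.

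The 3 Pool A arrays correlated across all spots at r = 0.94 to 0.97, and the mixed array correlated with them at 0.83 to 0.88. The Pool B array correlated with the Pool A arrays at -0.20 to -0.16 over all spots. Those spots include 3781 without a gene name. Over the 10888 named tags alone, the Pool A mean correlated with the mixed array at 0.62 and with the Pool B array at 0.33. These are descriptions across spots or tags that share arrays and dyes. The array medians before centring ranged from -0.77 to 0.07. The median SD over the 3 Pool A arrays was 0.16 among the polymerase strains (0.02 for RPA43 to 0.37 for RPB10) and 0.15 among all strains.

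The design's main question was which strains differ in amount between the pools, and it was addressed by the mixed array minus the Pool A self-self mean. Among the polymerase strains, 3 fell and 0 rose at an adjusted p under 0.05 in limma. Those that fell were RPC82, RPO26 and RPC10, and these are 3 of 33 strains, or 9.09%. Over all 5444 strains, 7.38% were called, 1.54% higher and 5.84% lower, so the polymerase share lies near the background and is not a result about these genes. If positive values mean more Pool B, as taken here, strains diluted further in Pool A would give positive differences. The design meant every other strain to be equal. The 3 polymerase calls were negative, as were 318 of the 402 calls over all strains, and so run against the designed direction. That direction is likely rather than stated, and the cause of the negative calls was not tested. The median difference of the 33 strains was 0.02, against -0.06 for all strains, and the median size was 0.25 against 0.22. The 3 Pool A arrays supply all of the residual spread, and the single mixed array and the single Pool B array are taken to scatter as they do. The labels leave it unsaid whether the 3 came from different cultures, so a p-value reflects only array-to-array spread, which may be technical.

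**Figure D1:**
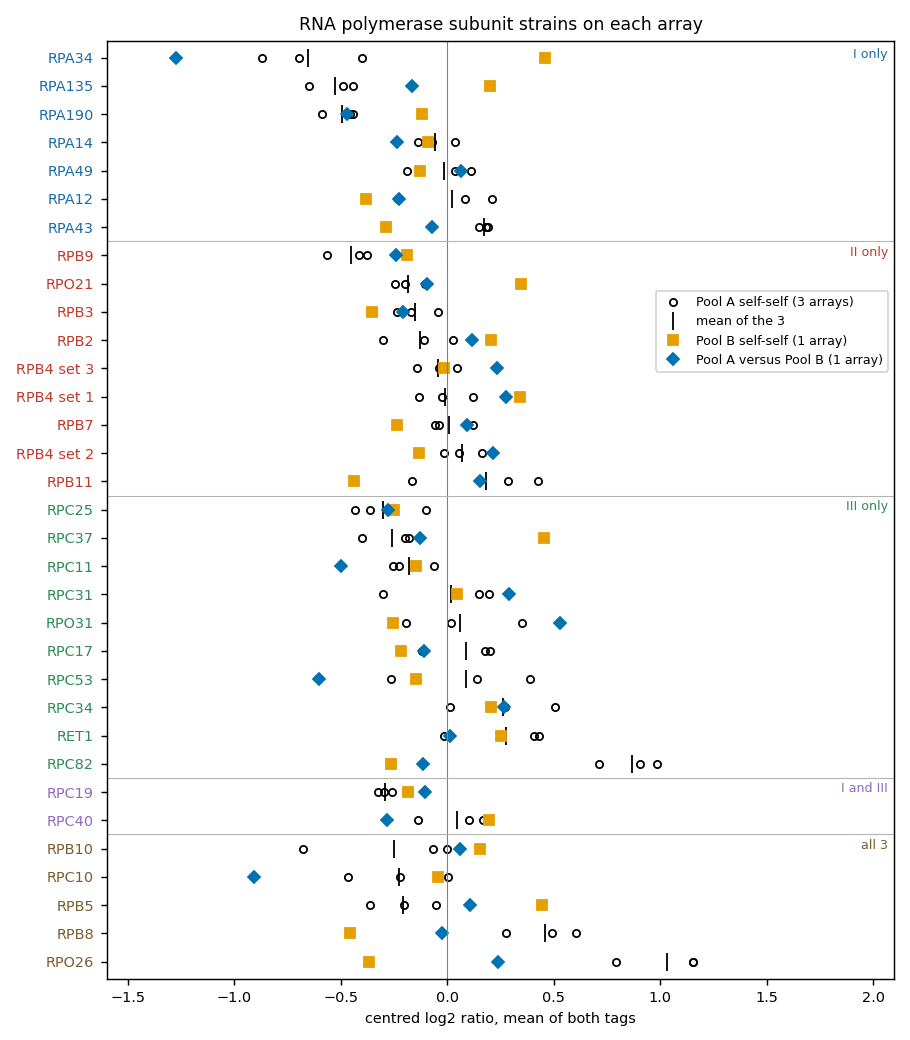
Centred log2 ratio (x axis, mean of both tags) of the 33 polymerase strains (y axis, by class) on each array: open circles are the 3 Pool A self-self arrays with a bar at their mean, squares the Pool B self-self array and diamonds the Pool A versus Pool B array. RPO26 and RPC82 have the highest Pool A values, with means of 1.03 and 0.87, and their Pool B and mixed values lie below all 3 circles.

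RPC82 encodes a subunit of the TFIIE-like trimer of polymerase III, which takes part in promoter opening. Its strain read 0.71, 0.90 and 0.99 on the Pool A arrays, -0.27 on the Pool B array and -0.11 on the mixed array. The 3 Pool A values were high, and both other arrays lay below all of them. The mixed array was lower than the Pool A mean by limma (difference -0.98 ± 0.20 SE, adjusted p = 0.00185). The mixed and Pool B values differed by 0.15, so the call rests on which self-self arrays serve as the reference. With all 4 self-self arrays as the reference the difference was -0.70 and was not called (adjusted p = 0.854, the highest of 11 alternatives, whose lowest was 0.00183).

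The other members of that trimer were RPC34, which contacts the initiation factor TFIIIB, and RPC31. For RPC34 the difference on the mixed array was 0.001 (95% interval -0.42 to 0.42). For RPC31 the difference was 0.27 (-0.16 to 0.71). Neither passed the test.

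RPO26 encodes a small subunit common to all the polymerases, the relative of bacterial omega. The strain read 0.79, 1.15 and 1.15 on the Pool A arrays, -0.37 on the Pool B array and 0.24 on the mixed array. The mixed value lay between the Pool B value and the Pool A values. Its difference from the Pool A mean was -0.79 ± 0.20 SE (limma, adjusted p = 0.0147). Without Pool A replicate 2 it was -0.73 and no longer called (adjusted p = 0.0576), and against the Pool B array alone the sign turned, to 0.61. Over the 11 alternatives the adjusted p ran from 0.0151 to 0.935.

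RPC10 encodes a small zinc-binding common subunit. The strain read -0.46, 0.004 and -0.22 on the Pool A arrays, -0.05 on the Pool B array and -0.91 on the mixed array. The mixed array gave the lowest value of all 5, below both kinds of self-self array. Its difference was -0.68 ± 0.20 SE (limma, adjusted p = 0.04). It was called in 6 of the 11 alternatives, with adjusted p from 0.0308 to 0.541. The call was lost without centring (difference -1.11), with quantile normalization (-0.51), with scaled arrays (-0.64), without Pool A replicate 2 (-0.57) and with all 4 self-self arrays as the reference (-0.73), and the sign was the same in each.

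Of the other common subunits, RPB8 gave a difference of -0.48 (adjusted p = 0.147), RPB10, a zinc-binding subunit, 0.31 (0.448) and RPB5, which lies at the jaw of the enzyme that grips downstream DNA, 0.31 (0.367), all by limma. RPB5 was the highest of this class. It read -0.05, -0.36 and -0.20 on the Pool A arrays, 0.45 on the Pool B array and 0.10 on the mixed array. The Pool B array was the highest and the mixed array came next. The 5 common subunits had a median difference of -0.48, the lowest of the classes, with 2 strains called and 2 above 0. Of all strains, 7.38% were called. Leaving out centring (median -0.90) or centring the blocks separately (-0.44) shifts every strain's difference by the same amount. The order of the classes could not change there. The class was also lowest after quantile normalization (-0.39) and with scaled arrays (-0.48). Against the Pool B array alone it was not the lowest, with a median of -0.10 beside -0.14 for polymerase I subunits and -0.20 for those of polymerases I and III. No test of the class was made.

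The polymerase I subunits had 0 of 7 strains called. RPA34, which forms the TFIIF-like dimer of polymerase I with RPA49, was the lowest. It read -0.69, -0.40 and -0.87 on the Pool A arrays, 0.46 on the Pool B array and -1.27 on the mixed array. The mixed array was below every self-self array and the Pool B array above all the others. The difference of -0.62 ± 0.20 SE did not pass (limma, adjusted p = 0.0658). It passed without Pool A replicate 3, with only the first spot of each tag, and against the Pool B array alone (-1.73, adjusted p = 3.83e-05, the lowest of 11 alternatives, whose highest was 0.77). Its partner RPA49 read 0.08 above the Pool A mean (95% interval -0.32 to 0.48).

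RPA135, the second largest polymerase I subunit, was the highest of this class. It read -0.65, -0.49 and -0.44 on the Pool A arrays, 0.20 on the Pool B array and -0.17 on the mixed array. The mixed value lay above the Pool A values and below the Pool B value. The difference of 0.36 ± 0.19 SE did not pass (limma, adjusted p = 0.279), and it was -0.06 without centring. RPA190, the largest subunit, gave 0.03 (95% interval -0.37 to 0.42). The stalk subunits RPA43 and RPA14 gave -0.25 and -0.18, and RPA12, the zinc ribbon subunit that supports RNA cleavage, gave -0.25, with none called.

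The polymerase II subunits had 0 of 9 strains called and differences from -0.06 to 0.29. Their median size was 0.15, the smallest of the classes, and their signed median was also 0.15, with 7 of 9 strains above 0. Without centring it was -0.27 with all 9 below 0, where the median of all strains was -0.49. RPB3, an alpha-like assembly subunit, was the lowest. It read -0.17, -0.05 and -0.24 on the Pool A arrays, -0.35 on the Pool B array and -0.21 on the mixed array. The mixed value lay within the Pool A range, and the difference was -0.06 ± 0.19 SE (limma, adjusted p = 0.896).

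The highest was tag set 1 of RPB4, which encodes a stalk subunit that dissociates readily and is not essential at normal temperature. It read 0.12, -0.02 and -0.13 on the Pool A arrays, 0.34 on the Pool B array and 0.28 on the mixed array. Both single arrays lay above the Pool A range. The difference was 0.29 ± 0.19 SE (limma, adjusted p = 0.4), and without centring it was -0.13. Tag sets 2 and 3 of RPB4 gave 0.15 and 0.28. The third set is a run of 5 adjacent spots in each block. The mean of the run lay within 0.34 of tag set 2 on every array in the first block and within 0.11 in the second, whereas it was up to 1.33 and 0.61 away from tag set 1. The annotation does not say which tag the run repeats, so the 3 RPB4 values may not be independent. The remaining polymerase II differences were 0.09 for RPO21, the largest subunit with the repeat tail, 0.24 for RPB2, the second largest, 0.08 for the stalk subunit RPB7, 0.21 for the zinc ribbon subunit RPB9 and -0.02 for RPB11, the partner of RPB3.

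Polymerase III had 1 of 10 strains called, RPC82. RPO31, its largest subunit, was the highest of all polymerase strains. It read -0.19, 0.02 and 0.35 on the Pool A arrays, -0.26 on the Pool B array and 0.53 on the mixed array. The mixed array was the highest of the 5, but the Pool A values themselves lay on both sides of 0. The difference of 0.47 ± 0.21 SE did not pass (limma, adjusted p = 0.185). RPC53 forms the TFIIF-like dimer of polymerase III with RPC37. It read 0.14, 0.39 and -0.26 on the Pool A arrays, -0.15 on the Pool B array and -0.60 on the mixed array, which was the lowest of the 5. The difference of -0.69 ± 0.22 SE did not pass (limma, adjusted p = 0.0508), and RPC37 gave 0.13. RET1, the second largest subunit, gave -0.26, and RPC11, the RNA cleavage subunit, -0.32. The stalk subunits RPC17 and RPC25 gave -0.20 and 0.02.

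The alpha-like subunits shared by polymerases I and III, RPC40 and RPC19, differed in sign, and neither passed. RPC40 read -0.14, 0.17 and 0.10 on the Pool A arrays, 0.20 on the Pool B array and -0.29 on the mixed array, a difference of -0.33 ± 0.20 SE (limma, adjusted p = 0.339). The mixed array was its lowest. RPC19 read -0.32, -0.26 and -0.30 on the Pool A arrays, -0.19 on the Pool B array and -0.10 on the mixed array, a difference of 0.19 ± 0.19 SE (limma, adjusted p = 0.599). The mixed array was its highest, and without centring the difference was -0.23.

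**Figure D2:**
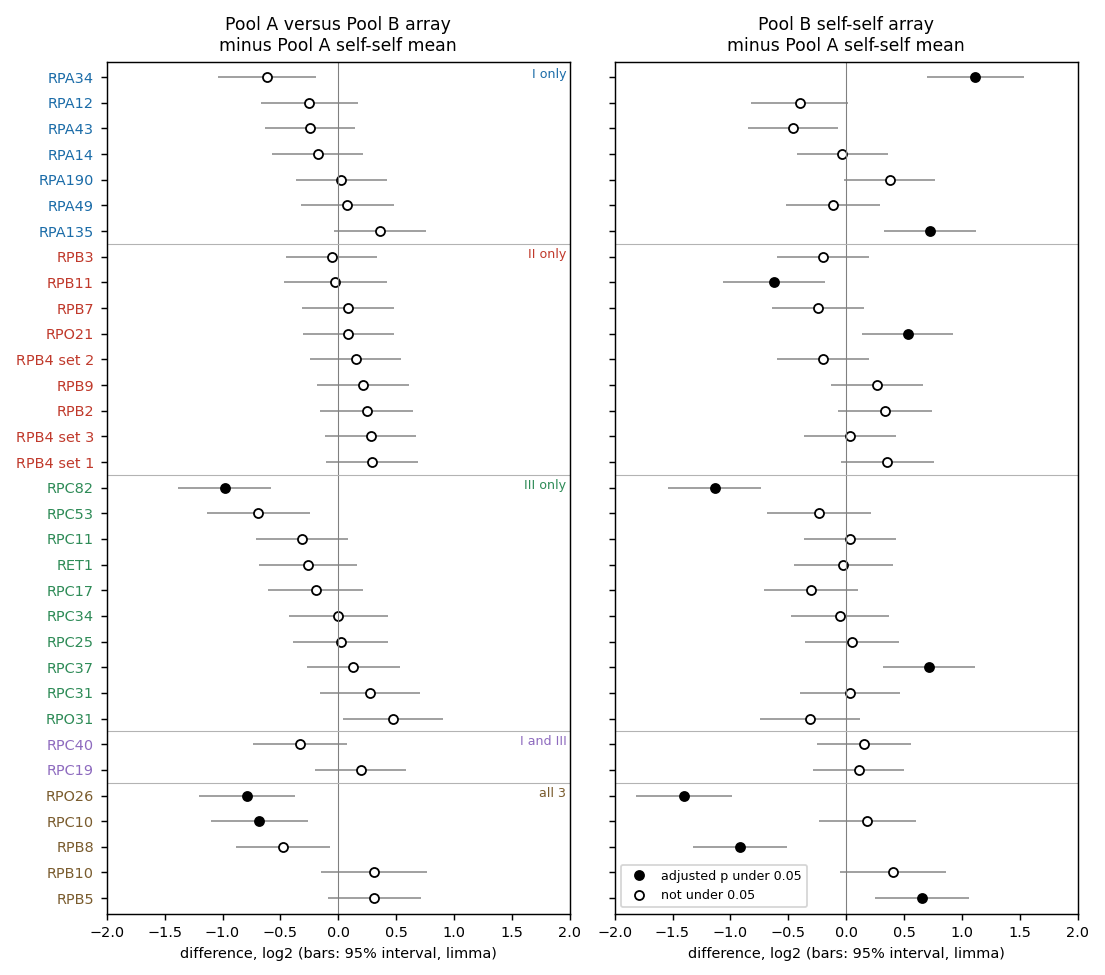
Difference in centred log2 ratio with its 95% interval from limma (x axis) for the 33 polymerase strains (y axis, by class), with filled points at an adjusted p under 0.05: the mixed array minus the Pool A self-self mean at left and the same difference for the Pool B array at right. The left panel has 3 filled points, all below 0, and the right has 9, of which 5 lie above 0. Both panels subtract the same 3 arrays.

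The width of these intervals sets what can be said. The median standard error of a polymerase strain's difference was 0.20. The 95% interval held 0 for 26 of 33 strains and lay within 1 log2 unit of 0 for 28. It held 0.33, the smallest dilution step of the design, for 20 strains, so a difference of that size is compatible with their values. On simulated arrays of 5444 strains, 2 of 40 strains shifted by 0.33 were called, as were 40 of 40 shifted by 1 and 37 of 40 shifted by -1. Every simulated array had the Pool A means and a spread like theirs, and 7 of 5244 unshifted strains were called. On the real Pool B array, with no pool difference between its channels, 21.9% of strains were called. The simulated counts therefore do not describe the real single arrays.

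By chromosome, 5 of the genes lie on chromosome IV (RPO21, RPC53, RPC11, RPA14 and RPB7). None of these 5 strains was called by limma, and their median difference was -0.18, against 0.02 for the 28 strains elsewhere, of which 3 were called. With 7.38% of all strains called, these small counts are not a result about the chromosome. The split was not tested, and no other chromosome was summarized. Of all 33 strains, 7 had an unadjusted p under 0.05 in limma, namely the 3 called strains and RPC53, RPA34, RPB8 and RPO31. None was a polymerase II strain. The share of all strains with such a p was not counted, so these numbers are not read as a result about these genes.

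Each strain carries an upstream and a downstream barcode, read in separate regions of the array that are called the first and second tag block here. The annotation used does not say which block holds which barcode. Tested one by one, 7 of the 66 polymerase tags (10.6%) fell and 0 rose on the mixed array, against 8.4% of all 10888 tags called, 1.87% higher and 6.53% lower. In the second block they were RPC82 (-1.53), RPC53 (-1.44), RPC10 (-1.09), RPA12 (-0.95), RPC11 (-0.93) and RPB8 (-0.86), and in the first block RPO26 (-0.79). No polymerase strain had both tags called by limma in this comparison. The count and its direction depend on the setting. It was 0 without Pool A replicate 1 and with all 4 self-self arrays as the reference, 4 without replicate 2 and 2 without centring. It was 12 with separately centred blocks (2 higher) and 12 with quantile normalization (4 higher).

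The other tag of most of these strains gave a different value. The first tag of RPC53 gave 0.06, that of RPC11 0.30, that of RPA12 0.45 and that of RPB8 -0.10, none of them called. RPO26 was the exception, since its tags gave -0.79 and -0.80. RPC82 gave -0.43 in the first block, in the direction of its second tag but smaller. Over the 33 strains, first-tag and second-tag differences correlated at r = 0.12 (0.23 over all strains), where the tags of a strain share its DNA, the arrays and the dyes.

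**Figure D3:**
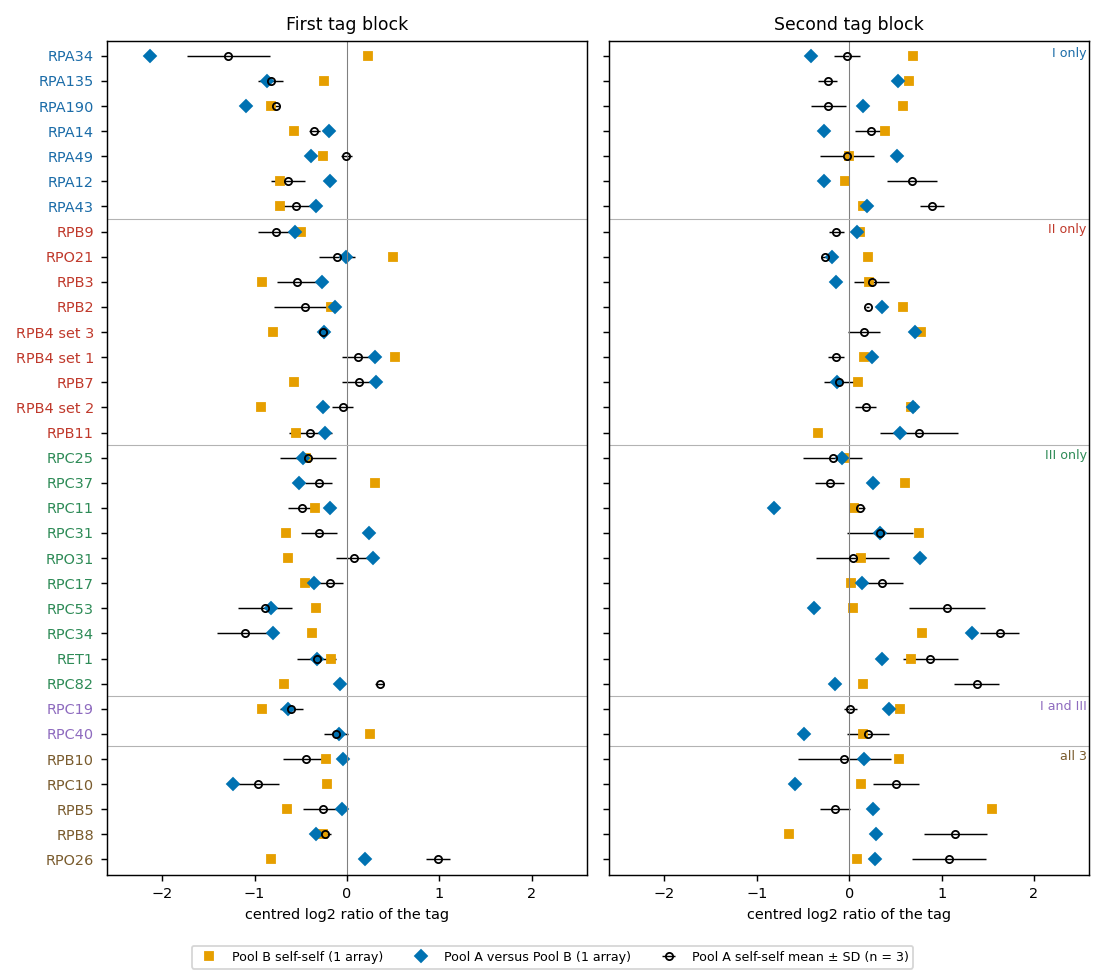
Centred log2 ratio (x axis) of each of the 66 polymerase tags, first block at left and second block at right, by strain (y axis): circles with bars are the Pool A self-self mean ± SD (n = 3), squares the Pool B self-self array and diamonds the mixed array. First-block means lie below 0 for 28 of 33 strains, and RPC34 has the widest separation, -1.10 in the first block and 1.63 in the second.

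The same-pool arrays show what the barcodes read when nothing differs between the channels. On the Pool A arrays, 12 of 33 polymerase strains (36.4%) departed from 0 by limma, against 44.9% of all strains. The 5 that lay above 0 were RPO26 (1.03), RPC82 (0.87), RPB8 (0.46), RET1 (0.27) and RPC34 (0.26). The 7 below 0 were RPA34 (-0.66), RPA135 (-0.53), RPA190 (-0.50), RPB9 (-0.45), RPC25 (-0.30), RPC19 (-0.29) and RPC37 (-0.26). Of these calls, those of RPO26, RPC82, RPA34, RPA135, RPA190 and RPB9 held in all 9 alternatives. RET1 and RPC34 were called in only 4 of 9, each losing the call without Pool A replicate 2 and without replicate 3. RPC37 was called in 5 of 9 and lost its call whichever Pool A array was left out. RPC19 was called in 6 (lost without replicate 2 or 3), RPC25 in 6 (lost without replicate 1 or 3) and RPB8 in 8. Of all strains, 24.3% were called higher and 20.6% lower. For single tags the count was 33 of 66 (50%), 14 higher and 19 lower, against 48.3% of all tags, 25.7% higher and 22.5% lower.

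RPC34 had the widest gap between its tags. The first tag read -1.36, -0.76 and -1.19 on the Pool A arrays, -0.38 on the Pool B array and -0.80 on the mixed array. The second tag read 1.38, 1.77 and 1.73 on the Pool A arrays, 0.79 on the Pool B array and 1.33 on the mixed array. The tags of this strain stood on opposite sides of 0 on all 5 arrays, and their mean over the Pool A arrays was 0.26. RPC53 followed with a gap of 1.94 on the Pool A arrays, 0.38 on the Pool B array and 0.44 on the mixed array.

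The second tag lay above the first on the Pool A mean in 28 of 33 polymerase strains (84.8%), and in 78.7% of all strains. The first tag lay below 0 in 28 of 33, or 84.8%, and in 71.0% of all strains. The median gap was 0.60 for the polymerase strains and 0.44 for all. The values of first and second tags on the Pool A mean correlated at r = 0.05 over 33 strains, and at 0.09 over all. Across the 66 tags, the Pool A mean correlated with the mixed array at r = 0.59 and with the Pool B array at 0.27. These correlations are descriptions over tags that share arrays and dyes.

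The comparison of the self-self arrays asks how far a ratio differs between arrays that hold no pool difference within them. It subtracts the same 3 Pool A arrays as the comparison above. On the Pool B array, 9 of 33 polymerase strains (27.3%) differed from the Pool A mean by limma, against 21.9% of all strains. Of these, 5 were higher (15.2%, against 8.54% of all) and 4 lower (12.1%, against 13.3% of all). Without centring, 12 were called, all of them lower, where the median of all strains was -0.72. That setting called 1899 of all 5444 strains, 1894 of them lower, so the one-sided count is not particular to the polymerase strains.

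Among the lower strains, RPO26 differed by -1.40 ± 0.20 SE (adjusted p = 4.57e-05) and RPC82 by -1.13 ± 0.20 SE (0.000303), each in limma. RPB8 read 0.28, 0.49 and 0.60 on the Pool A arrays and -0.46 on the Pool B array, with -0.02 on the mixed array, and differed by -0.92 (limma, adjusted p = 0.0022). RPB11 read -0.17, 0.28 and 0.43 on the Pool A arrays and -0.44 on the Pool B array, and differed by -0.62 (limma, adjusted p = 0.0393). For each of these 4 the Pool B array gave a value below all 3 Pool A arrays.

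Among the higher strains, RPA34 differed by 1.12 ± 0.20 SE (limma, adjusted p = 0.000544) and RPA135 by 0.73 (0.00972). RPC37 read -0.40, -0.20 and -0.18 on the Pool A arrays and 0.45 on the Pool B array, a difference of 0.71 (limma, adjusted p = 0.011). RPB5 differed by 0.65 (adjusted p = 0.0198), and RPO21 by 0.53 (0.0473), with -0.10, -0.25 and -0.20 on the Pool A arrays and 0.35 on the Pool B array, both by limma. On the mixed array RPC37 read -0.13, RPO21 -0.10 and RPB11 0.16. All 5 higher strains had Pool A means below 0 and Pool B values above 0. The RPO26, RPC82, RPB8 and RPB11 strains had the opposite arrangement. All of these strains were picked by the difference between the same values, which favours such an arrangement, so it is not a separate result. RPO26, RPC82 and RPB8 were called in all 9 alternatives. RPO21 was called in only 4 of 9, and RPB5 and RPB11 in 6. RPO21 and RPB11 lost their calls without Pool A replicate 2 and without replicate 3, and RPB5 without replicate 2. Without centring none of the 5 higher strains was called, with differences of -0.16 for RPO21, -0.04 for RPB5, 0.02 for RPC37, 0.03 for RPA135 and 0.42 for RPA34.

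At tag level, 20 of 66 polymerase tags (30.3%) differed on the Pool B array, 7 higher and 13 lower, against 21.2% of all tags (7.89% higher and 13.3% lower). Without Pool A replicate 1 none was called, of these or of all tags. Without replicate 2 or 3 the count was 13, and without centring it was 15, all lower. Of all 10888 tags, 1651, 1546 and 2616 were called under these settings, with 2574 of the last lower. The lowest were the second tag of RPB8 (-1.81) and the first tag of RPO26 (-1.80), and the highest were the second tag of RPB5 (1.70) and the first tag of RPA34 (1.51). The tags of RPB5 moved apart. The first read -0.13, -0.51 and -0.12 on the Pool A arrays and -0.65 on the Pool B array, and the second 0.03, -0.22 and -0.28 and then 1.54. Its 2 tags were 0.10 apart on the Pool A mean and 2.20 apart on the Pool B array. RPO26, RPC82 and RPA34 had both tags called, and in each strain both tags moved the same way.

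RPO26 and RPC82 are both on chromosome XVI, with MLC2 and SKI3 between them in the spot order of the array. This was looked at after their values were seen. MLC2, a myosin light chain gene, had a Pool A mean of 0.59 and SKI3, of the RNA decay machinery, 0.20. Their Pool B differences were -0.56 (limma, adjusted p = 0.0596) and 0.10 (0.755). Nearby genes on the outer sides differed too. AQY1, an aquaporin gene, had a Pool A mean of 1.16, a Pool B difference of -1.63 (limma, adjusted p = 1.08e-05) and a mixed difference of -0.65 (0.0487). ATG13, of autophagy, had a Pool A mean of 0.66 and a Pool B difference of -1.07 (limma, adjusted p = 0.00101). PZF1, which encodes TFIIIA, had a mixed difference of -0.84 (limma, adjusted p = 0.0106). High Pool A values or lower single arrays were therefore not confined to RPO26 and RPC82 in this stretch. Among up to 10 tags on either side in spot order, neighbours of RPC82 had a median Pool A mean of 0.40 in the first block and 0.46 in the second, with median Pool B differences of -0.78 and -0.56. Neighbours of RPO26 had medians of 0.09 and 0.48, with Pool B differences of -0.41 and -0.56. The neighbour sets of RPC82 and RPO26 overlap, and each includes the other gene, so they are not separate results. Neighbours of RPA34, for comparison, had Pool A medians of -0.03 and 0.19 and Pool B differences of -0.06 and -0.01. Those of RPC10, on chromosome VIII, had Pool A medians of -0.02 and 0.31 and Pool B differences of -0.42 and -0.35. Negative neighbour medians were therefore not confined to the stretch around RPO26 and RPC82. Nearness on the chromosome and nearness on the array cannot be told apart here. The share of array position in the RPO26 and RPC82 values was not tested.

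The polymerase I genes RPA12, RPA14, RPA34 and RPA49 were spotted 6 times per tag, 1 spot apart from the others and 5 adjacent, which shows how well a single spot repeats. The median SD over the 6 spots of these 8 tags was 0.08, 0.19 and 0.27 on the Pool A arrays, 0.06 on the Pool B array and 0.16 on the mixed array. Within the adjacent run, the last spot exceeded the first by a median of 0.02, 0.43 and 0.64 on the Pool A arrays, -0.03 on the Pool B array and 0.32 on the mixed array. Over all 1562 tags with 6 spots the corresponding medians were 0.07, 0.40, 0.60, 0.02 and 0.31.

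The shift along the run was thus present on Pool A replicates 2 and 3 and the mixed array for tags at large, with the last spot above the first in 97.3%, 99.2% and 96.5% of them. The first tag of RPA34 separated the arrays by more than this shift. Its 6 spots lay between -1.36 and -0.91, between -0.99 and -0.74 and between -2.08 and -1.49 on the Pool A arrays. They lay between 0.09 and 0.30 on the Pool B array and between -2.21 and -2.06 on the mixed array. The spots of the Pool B array lay above all Pool A spots, and those of the mixed array lay at the lower end of Pool A replicate 3 or below it. For RPA12, the second tag read 0.37, 0.88 and 0.78 on the Pool A arrays, -0.04 on the Pool B array and -0.27 on the mixed array, and every spot of the mixed array lay below every Pool A spot.

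**Figure D4:**
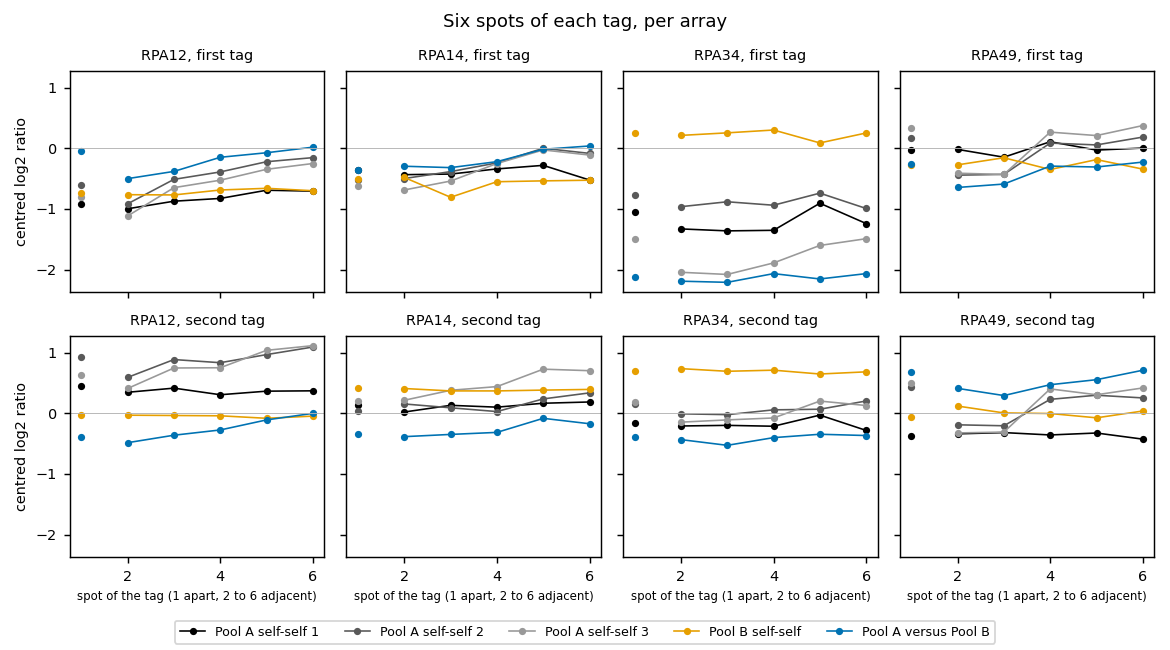
Centred log2 ratio (y axis) of the 6 spots (x axis: 1 stands apart, 2 to 6 are adjacent and joined by a line) of the first tag (top row) and second tag (bottom row) of RPA12, RPA14, RPA34 and RPA49, with a colour for each array. Pool A replicates 2 and 3 and the mixed array climb along the run for most tags, and the first tag of RPA34 separates the Pool B array (mean 0.23) from the mixed array (mean -2.13).

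Genes that work with the polymerases were taken from 4 lists and read in the same fit. The background is again 7.38% of all strains called and 5.84% called lower. Among 10 polymerase I initiation genes, 1 fell on the mixed array and 0 rose. This was SPT15, the TATA-binding protein that all the polymerases use. It read 0.29, 0.47 and 0.21 on the Pool A arrays, -0.49 on the Pool B array and -0.45 on the mixed array, a difference of -0.77 ± 0.19 SE (limma, adjusted p = 0.0143). Both single arrays lay below all 3 Pool A arrays, as for RPC82.

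Among 9 polymerase III initiation and regulation genes, 2 fell and 0 rose, TFC7 and TFC6. Both encode subunits of TFIIIC, which binds the internal promoters of transfer RNA genes. No test of the list was made. TFC7 read -0.21, 0.08 and -0.07 on the Pool A arrays, 0.11 on the Pool B array and -0.85 on the mixed array, a difference of -0.78 (limma, adjusted p = 0.0137). TFC6 read 0.73, 0.65 and 0.49 on the Pool A arrays, -0.15 on the Pool B array and -0.12 on the mixed array, a difference of -0.74 (limma, adjusted p = 0.0178). TFC7 was low on the mixed array alone, and TFC6 was high on the Pool A arrays alone.

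Among 12 polymerase II initiation and elongation genes none was called, and the largest difference was -0.34 for TAF14, a TFIIF and TFIID subunit (limma, adjusted p = 0.31). Among 9 strains of 8 genes for polymerase assembly and import none was called, and the largest was -0.61 for tag set 2 of RTP1, which takes part in polymerase assembly and import (limma, adjusted p = 0.0679). The list medians were -0.03, 0.12, -0.04 and -0.11 for polymerase I, III and II factors and assembly genes, against -0.06 for all strains.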

How the data were processed

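Each deposited value is the log2 ratio of both dyes at 1 spot. What the authors did before deposit (scanner, background treatment, normalization) is not given in the sources. The values were read as log base 2, since 100% of small ratios then had 3 decimals. Spots of a tag were averaged, and the strain value is the mean of its 2 tags. Arrays were centred on the median of their named spots. All 5 arrays, in 3 groups, entered 1 linear model per level in limma 3.58.1 (functions lmFit, contrasts.fit and eBayes, R 4.3.3), over 5444 strains or 10888 tags, with no filter on low values. Tests were two-sided with Benjamini-Hochberg adjustment over the whole table, and a call is an adjusted p under 0.05. The number of arrays and the spread between them limit the precision. The fit was tested on simulated data. Chromosomes came from a table of assembly R64, and the order of neighbouring strains is the order of their spots. No coordinates or barcode sequences are given.

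The polymerase genes and the other gene lists were chosen with earlier results of these data known. By rule, values on every array were given for strains called on the mixed array, for the highest and lowest strain of each class there, and for strains with both tags called or called in opposite directions there (none). Other strains were added after their values were seen. Alternatives covered centring, quantile normalization, scaling, robust variances, single spots, leaving out each Pool A array and other reference arrays. Comparing the mixed array with the Pool B array alone was added after the data had been seen.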

Additional observations from a re-analysis of the deposited data

Results flagged for a closer look

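Polymerase strains for which the Pool B array stood apart from the mean of the Pool A arrays by a test of that difference (limma, adjusted p under 0.05) are given here. Both kinds of array carried the same pool in both channels. RPO26 differed by -1.40, RPC82 by -1.13, RPB8 by -0.92 and RPB11 by -0.62. RPO21 differed by 0.53, RPB5 by 0.65, RPC37 by 0.71, RPA135 by 0.73 and RPA34 by 1.12. The Pool B group is 1 array with its own title prefix, so pool and prefix cannot be told apart.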

How the results depend on the processing

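No paired analysis was possible because the Pool B and mixed groups hold 1 array each and no label pairs arrays across groups. Of the polymerase strains called on the mixed array (3), the count was 1 to 5 when a Pool A array was left out (RPC82 alone without replicate 2, and RPC53 and RPA34 added without replicate 3) and 0 with all 4 self-self arrays pooled as the reference. Against the Pool B array alone 2 were called, RPA34 and RPC10. The polymerase tags called (7) became 2 without centring, 12 with separately centred blocks and 12 with quantile normalization. They became 0 to 7 when a Pool A array was left out, and 0 with all 4 self-self arrays pooled as the reference. On the Pool B array the 20 called tags became 0 to 13 when a Pool A array was left out, and on the Pool A arrays the 12 called strains became 6 without centring. At tag level the fit without Pool A replicate 1 had 3.35 degrees of freedom behind each variance, against 23.3 with all arrays. At strain level these were 7.35 and 25.8. Without replicate 2 or 3 the fit used 1 common variance for every tag or strain (10900 and 5440 degrees of freedom). Counts from these fits are therefore not directly comparable. The causes of these changes were not tested.

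Over the whole table, the 402 strains called on the mixed array became 227 without centring, 226 with scaled arrays, 190 without Pool A replicate 2 and 33 with all 4 self-self arrays pooled as the reference. The 915 tags became 301, 1462 with separate blocks, 1390 with quantile normalization, 12 without replicate 1, 505 without replicate 2 and 72 with all 4. On the Pool B array, 1190 strains became 1899 without centring, 712 with scaled arrays, 731 without replicate 2 and 719 without replicate 3. Its 2310 tags became 3530 with separate blocks, 3491 with quantile normalization and 0 without replicate 1. On the Pool A arrays, 2443 strains became 834 without centring and 1509 without replicate 3, and 5258 tags became 2870 without centring.

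Signs turned for RPA135 (-0.062), RPB4 tag set 1 (-0.13), RPC19 (-0.23) and RPB5 (-0.11) without centring, which moved the median of all strains to -0.49. Against the Pool B array alone they turned for RPC82 (0.15), RPO26 (0.61), RPA135 (-0.37), RPB4 tag set 1 (-0.065), RPB3 (0.14) and RPB5 (-0.34). Of the 121 named-strain values under these alternatives, 100 kept their direction and their side of the threshold. Most of the 121 belong to strains that were not called in the main fit and kept their side by staying uncalled. The calls themselves held in 9 of 11 alternatives for RPC82, 8 for RPO26 and 6 for RPC10. The lone mixed array limits every strain to a standard error near 0.20.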
